A study of Mus musculus with 4 samples.

Results

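CTCF binding was described at the genes that encode CTCF and the cohesin machinery: Ctcf and its paralogue Ctcfl, the cohesin ring genes Rad21, Smc3 and Stag1, the cohesin loader genes Nipbl and Mau2, and the release factor genes Wapl, Pds5a and Pds5b. These 10 genes were chosen by name from the 20807 autosomal protein-coding genes of GENCODE M21. A summit, the position of highest signal in a peak, was taken as a member where it lay in 1 of these gene bodies or within 20 kb of either end. In the authors' conservative peak list, 56 of 52835 autosomal summits met that rule, of 54309 summits in the whole list. They belonged to 55 distinct intervals, and no summit fell in the windows of a pair of genes.

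The peaks come from chromatin immunoprecipitation and sequencing (ChIP-seq) of CTCF in frozen heart tissue of adult female B6CASTF1/J mice aged 2 months, the first generation of a cross between C57BL/6J and CAST/EiJ. Pool G (biological replicate 2) and pool H (biological replicate 1) each joined 2 heart biosamples and each gave 2 libraries, and all 4 libraries carry the same donor label. There was no treatment, mutant or second tissue, so the comparisons are between these windows and the rest of the list, and between pool G and pool H. With 1 thresholded list per pool there was no test over replicates. Shares are given with exact (Clopper-Pearson) 95% binomial intervals, which cover counting error only. Library depth is unknown because the lists carry no counts of reads. They carry no expression either, so the tissue label was not checked against marker genes. Signals of the 2 parental alleles are summed on mm10, which is the C57BL/6J sequence.

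CTCF is a zinc-finger protein that binds DNA at a directional motif and, together with cohesin, marks the ends of chromatin loops and domains. Cohesin is a ring of SMC and kleisin subunits that is loaded on chromatin by NIPBL and MAU2, extrudes DNA into loops until it meets CTCF in the right orientation, and is taken off by WAPL and the PDS5 proteins. In human patients, variants of the loader and ring genes cause Cornelia de Lange syndrome, in which malformations of the heart are frequent.

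CTCF was bound at the promoters of 6 of the 10 genes: Ctcf itself, Rad21, Smc3, Stag1, Pds5a and Pds5b. A promoter summit here is a summit within 1 kb of any annotated transcript start of the gene. The share was 60% (26.2 to 87.8), against 35.7% of all autosomal protein-coding genes. The interval of the members' share holds that background. With the 5′ end of the gene record as the start, 5 of 10 members had one, against 28.0% of all genes, and Stag1 was the gene lost. The share with a promoter summit differed by the number of annotated starts: over all genes it was 16.7% with 1 start, 29.6% with 2 to 4 and 53.6% with 5 or more. The members had a median of 5 starts, all genes a median of 3. Among the members it was 0 of 2 with 1 start (Ctcfl and Nipbl), 2 of 2 with 2 to 4 and 4 of 6 with 5 or more.

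The bases under the strongest promoter summit of each of the 6 genes are shown because they include promoters with and without the CTCF core, the 12-base centre of the CTCF motif. They were read from GRCm38.p6, the assembly of mm10. Capitals mark the core where 1 was found with at most 1 mismatch within 100 bp of the summit, and otherwise the base of the summit. Rad21 is printed from the minus strand and the others from the plus strand, and summits of a gene are numbered along its direction of transcription. The coordinates are chr8:105636832-105636891 for Ctcf, chr15:51991858-51991917 for Rad21, chr19:53599885-53599944 for Smc3, chr9:100643564-100643593 for Stag1, chr5:65696933-65696962 for Pds5a and chr5:150673669-150673728 for Pds5b.
Ctcf summit 2: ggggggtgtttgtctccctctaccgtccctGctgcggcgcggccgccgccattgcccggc
Rad21 summit 1: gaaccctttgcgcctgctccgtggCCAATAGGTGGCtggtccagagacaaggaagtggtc
Smc3 summit 1: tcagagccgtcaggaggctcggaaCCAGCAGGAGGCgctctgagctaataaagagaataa
Stag1 summit 2: gcagcgcggCCAGCAGAGGGCggtcgggac
Pds5a summit 5: ggcctctatcggtcaGaaaatcaaagttca
Pds5b summit 2: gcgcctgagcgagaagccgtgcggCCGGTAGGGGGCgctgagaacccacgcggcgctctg
Of these 6, Rad21, Smc3, Stag1 and Pds5b had the core on the strand of the gene, and Ctcf and Pds5a had none. A core is a description of letters, and its absence says only that these letters were not found in the window.

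**Figure D1:**
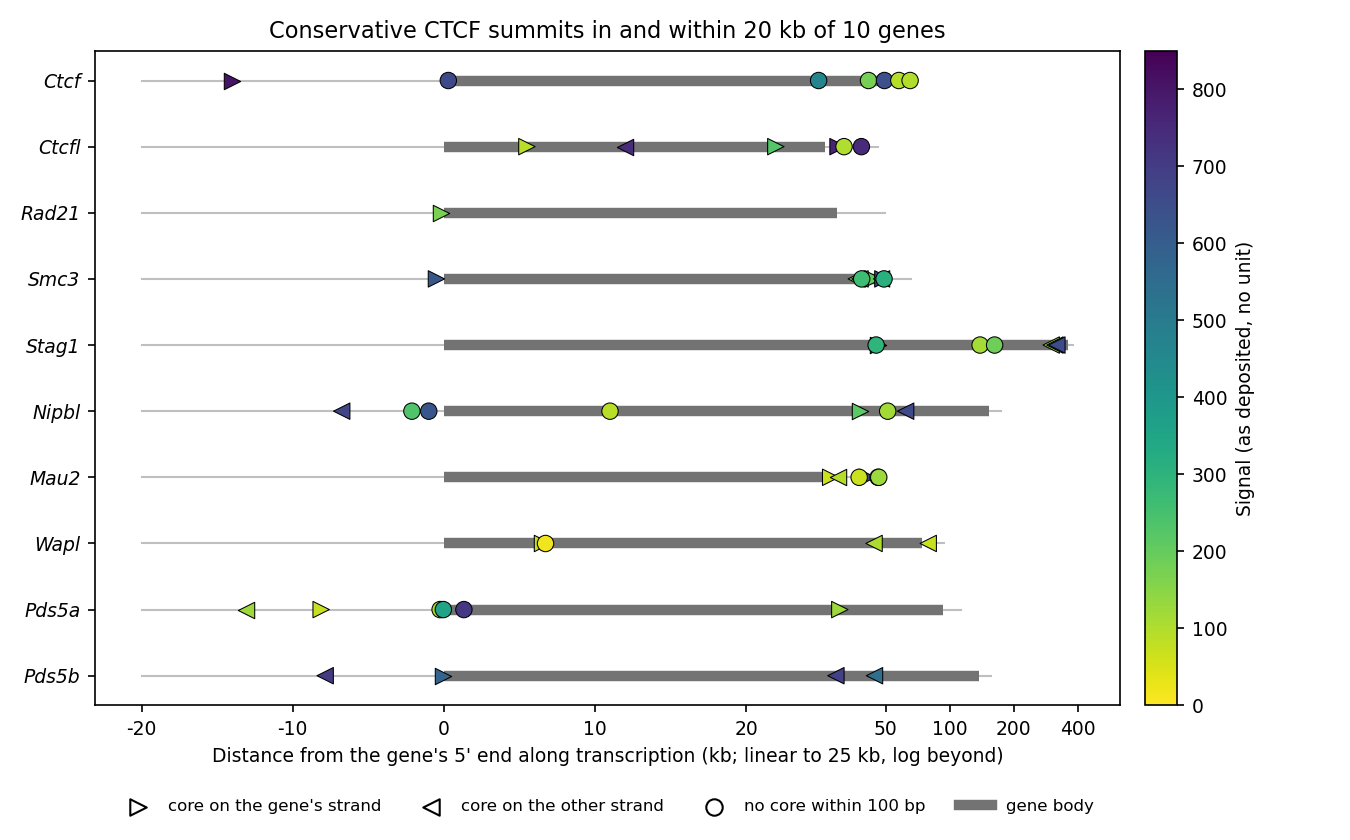
The 56 conservative summits by distance from the 5′ end of each gene record along transcription (kb, linear to 25 kb and logarithmic beyond), 1 row per gene. Triangles point right where the core lies on the gene's strand and left where it lies on the other strand, circles have no core within 100 bp, and colour gives the deposited signal. Rad21 has 1 summit, all 6 summits of Mau2 lie past its end, and markers of close summits overlap at Smc3, Stag1 and Wapl.

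The 10 windows ranged from sparse to dense in CTCF summits. The density had a median of 4.07 per 100 kb over the members, against 3.93 over all autosomal protein-coding genes, whose quartiles were 1.56 and 6.91. Smc3 with 9.36, Ctcfl with 9.1, Mau2 with 9.01 and Ctcf with 8.11 summits per 100 kb lay above the upper quartile. Rad21 with 1.44 was the sparsest, and Stag1 with 1.74 and Pds5b with 2.26 followed. Every member had at least 1 summit in its window, as had 82.0% of all genes.

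**Figure D2:**
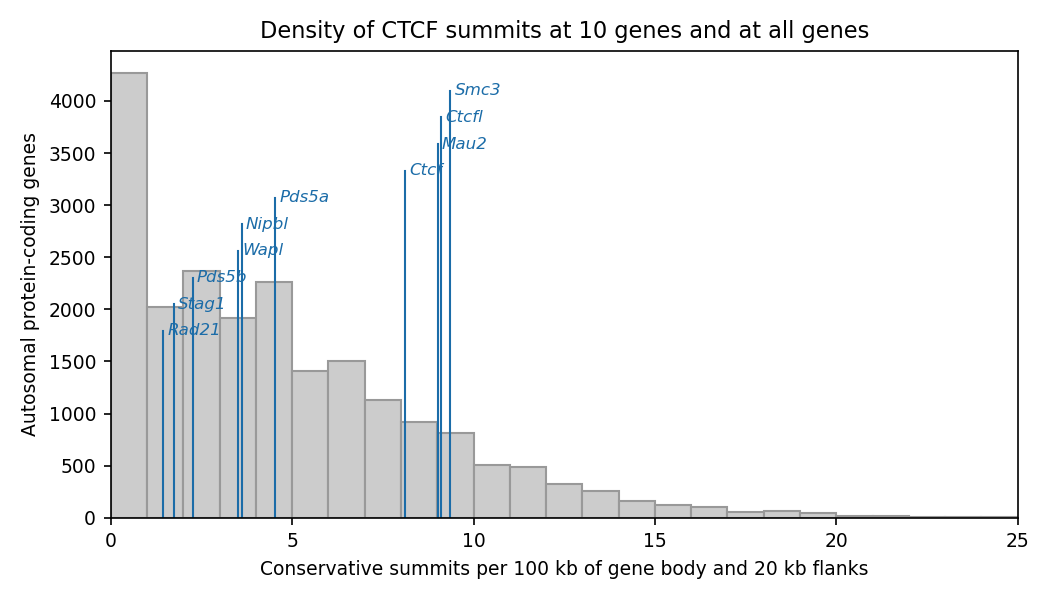
Summits per 100 kb of gene body and 20 kb flanks: blue lines mark the 10 genes, whose heights only separate the names, and grey bars count autosomal protein-coding genes. The 10 genes run from 1.44 (Rad21) to 9.36 (Smc3) around a background median of 3.93, and the axis leaves out 2 genes beyond 25.

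Signal is the value that the authors deposited for each peak, has no stated unit and is compared within a list. The 56 summits had a median signal of 222, between 16.8 and 806, against a median of 286 over the list. At or above that list median lay 25 of 56, 44.6% (31.3 to 58.5). Summits within 1 kb of a start of their own gene, 10 in all, had a median of 469 and a median of 14.5 CpG in 201 bases, while the other 46 had a median of 182 and 2 CpG. Those 46 include summits at starts of neighbouring genes, weak as well as strong ones. The same split over the list is not given here, so it is not shown to be particular to these genes. By place, 27 summits were intronic, 16 lay downstream and 12 upstream of the gene, and 1 was in a UTR.

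**Figure D3:**
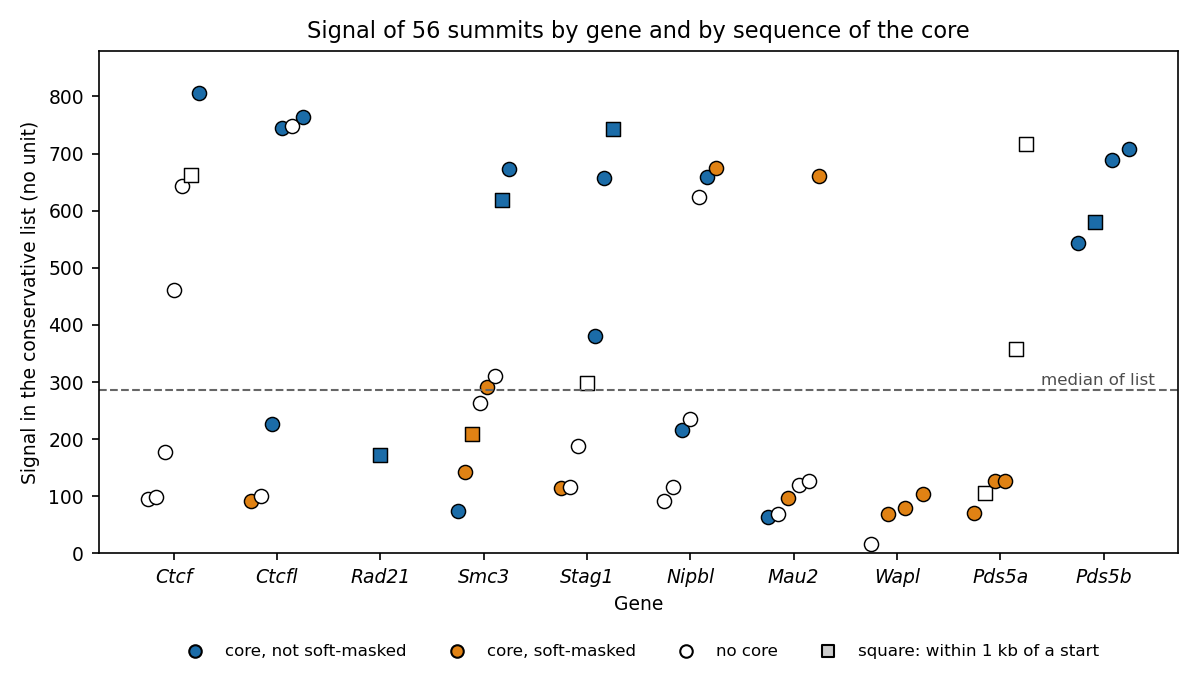
Signal of each summit in the conservative list (no unit) by gene. Blue points have a core outside soft-masked sequence, orange points a core with at least 1 soft-masked base and white points no core. Squares lie within 1 kb of a start of the gene, and the dashed line is the list median of 286. Wapl stays between 16.8 and 104, and all 4 summits of Pds5b lie between 544 and 708.

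The insulator gene Ctcf (chr8:105636568-105682922, plus strand) held 7 summits, among them the strongest of all 10 windows. That summit, the first, lay 14 kb upstream of the gene inside the GENCODE record of Agrp, with a signal of 806, above 98.5% of the list. It carried an exact core 3.5 bp from the summit, on the strand of Ctcf, and is printed below from chr8:105622542-105622601, plus strand, with the core in capitals.
Ctcf summit 1: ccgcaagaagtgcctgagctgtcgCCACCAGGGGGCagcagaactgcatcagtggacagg
Its pool G signal was 436, and it was missing from the thresholded list of pool H and from the second list of both pools. In pool H's ranked list, which holds all candidate peaks, it had a signal of 373, above 97.5% of the signals in that pool's thresholded list. The scaled IDR (irreproducible discovery rate, on a scale where 540 stands for 0.05 and 1000 is the maximum) was 78 there. So the strongest summit was absent from pool H's thresholded list with a high signal and a low IDR score, and the cause was not tested.

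The Ctcf promoter summit lay 73 bp upstream of the nearest Ctcf start, in CpG-dense sequence of 77.6% GC with 27 CpG. Its signal was 663 in the conservative list, 327 in pool G and 339 in pool H, and it had neither a core nor a hit of a scoring matrix learned on the rest of the list. The starts of Gm5914 and of the GENCODE record of Agrp also lay within 1 kb of it, so the summit belongs to a shared start region. In the introns, a summit 24.8 kb into the gene near the start of Gm5915 had 462, with 240 in pool G and 223 in pool H, and one 41.5 kb into the gene had 177, with 101 in pool G and 74.9 in pool H. Past the end of Ctcf, a summit of 643 (351 in pool G and 296 in pool H) lay at a start of Carmil2, and 2 weak ones of 94.5 and 98.9 lay at starts of Carmil2 and of Acd and Pard6a, in the pool H list with 46 and 41.6 but not in the pool G list. Of the 7 summits at Ctcf, the upstream one was the one with a core.

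Ctcfl (chr2:173093609-173119525, minus strand), whose protein binds the same motif and is known from the male germ line, had 6 summits and none within 1 kb of its single annotated start. The summit nearest to the start was 5.49 kb inside the gene and weak, with 92.0, and overlapped the record of Ctcflos. Strong summits stood inside and past the gene instead. The intronic one at 12 kb had 745, with 398 in pool G and 349 in pool H. One 3.93 kb past the end had 764, with 407 in pool G and 360 in pool H. One 12.5 kb past the end had 748, with 395 in pool G and 354 in pool H. The first of these 3 carried a core on the strand opposite to Ctcfl, the second a core on its strand and the third none. The other summits had 227 in an intron, with 132 in pool G and 96.3 in pool H, and 101 past the end, with 65.1 in pool G and 35.1 in pool H.

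The core of the strongest Ctcfl summit is shown as an exact match at an unmasked site. Beside it are the strongest cores of the loader genes Nipbl and Mau2, matches with 1 mismatch that lie partly in soft-masked sequence. All 3 were read from chr2:173089634-173089693, minus strand, chr15:8451195-8451254, plus strand, and chr8:70001824-70001883, minus strand.
Ctcfl summit 4: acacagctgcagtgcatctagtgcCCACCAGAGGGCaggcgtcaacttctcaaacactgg
Nipbl summit 1: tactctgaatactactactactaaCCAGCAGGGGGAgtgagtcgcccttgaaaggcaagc
Mau2 summit 4: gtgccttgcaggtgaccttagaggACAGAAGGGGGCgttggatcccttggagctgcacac
All 3 of these summits were strong, with 764 at Ctcfl, 675 at Nipbl and 661 at Mau2.

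Among the ring genes, Rad21 (chr15:51962240-51991747, minus strand), which encodes the kleisin that closes the ring, had 1 summit in 69.5 kb of window. It lay 178 bp upstream of the start, with a signal of 172, 96.6 in pool G and 74.5 in pool H, and was the weakest of the 6 strongest promoter summits. Its core, with 1 mismatch, was 37.5 bp from the summit, and the matrix learned on the list gave no hit. Below the threshold, the ranked list of both pools added 1 call in the window, with a signal of 15.9.

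Smc3 (chr19:53600398-53645833, plus strand), an ATPase arm of the ring, had 8 summits, the most of the 10. Its promoter summit, 491 bp upstream of the start, had 618, with 318 in pool G and 307 in pool H, and a start of AC137853.1 also lay within 1 kb. The next summit lay 36.4 kb into the gene, and from there to past the end of the gene stood the other 7. Intronic summits of 143, 291, 263 and 209 came first, the last of them 841 bp from an internal start. Past the end a strong summit of 673, with 350 in pool G and 321 in pool H, stood 3.08 kb away with a core on the gene's strand. Beside it were summits of 73.5, in neither pool list, and of 310, with 149 in pool G and 157 in pool H.

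Stag1 (chr9:100597798-100959375, plus strand), which encodes the HEAT-repeat subunit that docks on the ring, is the longest of the 10 genes, with 14 annotated starts and 7 summits, all of them in the body. The strongest, of 743, lay 29 bp from a start 45.8 kb into the gene record, in a UTR, over an exact core on the gene's strand. Pool G had 392 there. The pool H thresholded list lacked the peak, and the ranked list of pool H gave it 347 with a scaled IDR of 248. A neighbour of 298, with 166 in pool G and 138 in pool H, lay 559 bp upstream of another start. No summit lay within 1 kb of the 5′ end of the gene record. Further on, summits of 116 and 188 had no core, and the last 3, of 114, 381 and 658, carried cores on the opposite strand. The core at the start and these 3 cores therefore faced each other, over as much as 274 kb of the gene.

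The loader genes had no promoter summit by the rule. Nipbl (chr15:8290617-8444463, minus strand), which encodes the large loader subunit, had its nearest summit 1001 bp upstream of its 1 annotated start, just outside 1 kb. That summit had 624, with 332 in pool G and 295 in pool H, 12 CpG and no core. RefSeq has a predicted start upstream of the GENCODE one, 843 bp from the same summit. Further upstream lay summits of 235 at 2.12 kb (116 in pool G, 118 in pool H) and of 675 at 6.76 kb (361 in pool G, 314 in pool H). The 4 intronic summits, at 11.0, 38.0, 51.1 and 62.1 kb, had 91.2, 216, 117 and 659. The weakest of these was in the pool G list with 55.6 and not in the pool H list, and the strongest had 365 in pool G and 302 in pool H over an exact core opposite to the gene.

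Mau2 (chr8:70016123-70042734, minus strand), which encodes the partner of NIPBL, had 6 summits, and all of them lay past its 3′ end. The strongest, 14.3 kb past the end, had 661, with 383 in pool G and 277 in pool H. The others had between 63.4 and 127, and the 2 farthest, of 119 and 127, lay at a start of Gatad2a. The body and the upstream flank of Mau2 held no conservative summit, although pool H's own list had a peak of 38.5 in an intron. The second list of both pools had a peak of 80.5 at the same place and one of 65.7 at 7.88 kb upstream of a start, both with a scaled IDR of 1000. At its start the ranked list had a call of 21.4, with 18.5 in pool G and 8.32 in pool H, below the threshold.

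The release factor genes were unlike each other. Wapl (chr14:34673928-34747983, plus strand), whose product opens the ring, had 4 summits of 79.5, 16.8, 104 and 69.8, all below the list median, and none was in both single-pool lists. The one of 104 was in the pool G list with 68.1, and the other 3 were in neither. Scaled IDR was between 750 and 828 for these 4, below the stricter limit of 830. Near the 5′ end of Wapl the lists differed. Pool H's list had a peak of 30.4 in a UTR, 61 bp upstream of an internal start, with a scaled IDR of 959. The second list had one of 53.2, also in a UTR and 53 bp upstream of an internal start, with a scaled IDR of 553. In the ranked list matched between pools the same call had 22.2 in pool G, 30.4 in pool H and a scaled IDR of 67, below the minimum of 540. A strong summit of 724 stood 21.2 kb from the gene body, just outside the window.

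Pds5a (chr5:65605721-65698273, minus strand), whose product binds the ring and acts with WAPL, had 6 summits, 3 of them at its starts. The strongest, of 717, lay 83 bp upstream of an internal start, 1.32 kb into the gene record. Pool G had 385 there, and the pool H thresholded list lacked the peak, for which its ranked list gave 330 with a scaled IDR of 502. The other promoter summits shared 1 interval at the 5′ end of the gene record: 358 at 35 bp upstream, with 219 in pool G and 135 in pool H, and 106 at 248 bp upstream, with 54.4 in pool G and 39.8 in pool H. The summit of 358 had the most CpG and the highest GC content of the 56, with 39 CpG and 82.1%, and none of the 3 promoter summits had a core. The remaining summits, of 126, 71.3 and 126, were weak and each carried a core at least partly in soft-masked sequence.

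Pds5b (chr5:150673739-150810690, plus strand), the paralogue of Pds5a, had all 4 of its summits above the list median and in both pool lists. At Pds5a, 2 of 6 summits were at or above that median and 4 of 6 were in both lists. The promoter summit of Pds5b, 32 bp upstream of the start, had 580, with 300 in pool G and 284 in pool H. A summit of 708, with 361 in pool G and 348 in pool H, lay 7.86 kb upstream at a start of N4bp2l2. In the introns, summits of 689 at 29.2 kb (366 in pool G and 328 in pool H) and of 544 at 44.3 kb (292 in pool G and 255 in pool H) followed. All 4 carried an unmasked core, on the gene's strand at the promoter and on the other strand at the remaining 3.

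Over the 56 summits, 32 carried the core, 57.1% (43.2 to 70.3), against 65.9% of the autosomal summits outside the windows. In windows of the same size 1 kb away the shares were 12.5% (5.18 to 24.1) and 5.57%. The matrix, learned on summits outside these windows, gave 39.3% (26.5 to 53.2) of the members, against 46.8% of the other summits. Summits with a core outside soft-masked sequence were the stronger ones: these 18 had a median signal of 638, between 63.4 and 806. A core counted as in soft-masked sequence, which holds interspersed and simple repeats, where at least 1 of its 12 bases was soft-masked. The 14 summits with such a core had a median of 120. Nipbl summit 1 with 675 and Mau2 summit 4 with 661 were among them. Their cores were only partly soft-masked, since the summit base lay inside the core and was not masked. The 24 without a core had a median of 182. Outside the windows, autosomal summits with the core had a median of 363 and those without it 192. No list value is given here for masked against unmasked cores. The summit base itself was soft-masked at 11 of 56, 19.6% (10.2 to 32.4), against 21.8% of the other summits.

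Strong binding without the core occurred at 5 of the 19 summits with a signal of at least 500, 26.3% (9.15 to 51.2), against 20.6% of the other summits of that signal, so the interval holds the background. They were the Ctcf promoter (663), the Carmil2 start past Ctcf (643), the last summit past Ctcfl (748), the summit just upstream of Nipbl (624) and the internal start of Pds5a (717). None of the 5 had a matrix hit either. Of the 10 promoter summits 5 had a core, with a median signal of 580, and 5 had none, with a median of 358. Of those without a core, 3 were at Pds5a alone. The share of promoter summits with a core over the list is not given here.

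The same 12-base word occurred as the core of 10 of the 56 summits, 17.9% (8.91 to 30.4), against 12.5% of the other summits, so the interval holds the background. The next most frequent words occurred at 2 summits each. Its 10 copies are shown because they are copies of 1 word at 6 of these genes. They are printed on the strand of the word with the word in capitals. The coordinates on mm10 are chr2:173113980-173114039, minus strand, for Ctcfl, chr19:53636728-53636787 and chr19:53638228-53638287, both minus, for Smc3, and chr9:100898209-100898268, minus, for Stag1. They are chr8:70012940-70012999, plus, for Mau2, and chr14:34680372-34680431, plus, and chr14:34717923-34717982, minus, for Wapl. For Pds5a they are chr5:65711341-65711400, plus, chr5:65706348-65706407, minus, and chr5:65667855-65667914, minus.
Ctcfl summit 1: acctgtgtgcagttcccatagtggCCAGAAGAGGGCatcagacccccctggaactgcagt
Smc3 summit 2: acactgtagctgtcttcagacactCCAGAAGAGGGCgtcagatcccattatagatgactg
Smc3 summit 3: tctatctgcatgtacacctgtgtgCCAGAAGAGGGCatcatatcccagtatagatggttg
Stag1 summit 5: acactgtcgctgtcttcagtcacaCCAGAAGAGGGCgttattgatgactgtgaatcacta
Mau2 summit 2: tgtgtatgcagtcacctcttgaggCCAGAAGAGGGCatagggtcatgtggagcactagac
Wapl summit 1: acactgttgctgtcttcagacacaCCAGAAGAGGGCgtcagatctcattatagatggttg
Wapl summit 3: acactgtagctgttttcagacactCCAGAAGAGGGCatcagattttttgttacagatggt
Pds5a summit 1: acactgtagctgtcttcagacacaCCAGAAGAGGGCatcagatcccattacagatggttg
Pds5a summit 2: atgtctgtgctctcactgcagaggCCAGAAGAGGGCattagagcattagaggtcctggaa
Pds5a summit 6: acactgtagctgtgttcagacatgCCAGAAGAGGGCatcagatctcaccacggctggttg
The likeness ran past the word itself. Of the 48 flanking bases, a pair of these sequences shared between 9 and 44, with a median of 21 over 45 pairs. The closest pair, Wapl summit 1 and Pds5a summit 1 on different chromosomes, shared 44. At more than 24 shared bases, 7 of the 10 had a partner: Smc3 summits 2 and 3, Stag1 summit 5, Wapl summits 1 and 3 and Pds5a summits 1 and 6. All 10 cores lay at least partly in soft-masked sequence. The class of repeat was not annotated in the files used here.

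The 10 summits with the word had a median signal of 109 between 71.3 and 291, and 9 of them lay below the list median. In the rest of the list, summits with the word had a median of 162 and summits without it 323. The highest of the 10, in an intron of Smc3 with 291, had 158 in pool G and 137 in pool H. Ctcfl summit 1, Smc3 summit 2, Mau2 summit 2, Wapl summits 1 and 3 and Pds5a summit 2 were not in both pool lists.

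Cores pointed along the gene as often as against it. On the gene's strand lay 16 of 32, 50% (31.9 to 68.1). Of the 22 pairs of neighbouring cores within a window, 8 were convergent, 7 divergent and 7 in tandem. With matrix hits in place of cores, 4 of 14 pairs were convergent, 4 divergent and 6 in tandem. The matching shares at other genes are not given here, so these orientations describe the members alone. In Stag1 and Pds5b, a core on the gene's strand at a start was followed further into the gene by cores on the opposite strand, and Pds5b had another core on the opposite strand upstream, under its strongest summit.

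Both single-pool lists held 39 of the 56 summits, 69.6% (55.9 to 81.2), against 85.2% of the other autosomal summits. The interval does not reach that background. Wapl had 0 of 4 in both lists. Without Wapl the share was 39 of 52, 75.0% (61.1 to 86.0), and the interval holds the background, while without any other single gene it does not. A scaled IDR of at least 830 also leaves out all 4 Wapl summits. There the share was 37 of 48, 77.1% (62.7 to 88.0), and the interval does not reach the 88.7% of the other summits. Pool G's list held 47 and pool H's 42. In pool G's list alone were 8, in pool H's list alone 3 and in neither list 6. The matching shares of the other summits are not given here, so these counts describe the members alone. Of the 17 that were not in both, 14 had a signal of at most 143. The other 3 were the strong summits with a low scaled IDR in pool H named above, upstream of Ctcf, at the Stag1 start and at the internal start of Pds5a. Below the list's median signal 17 of 31 members were in both pool lists, 54.8% (36.0 to 72.7), against 76.7% of the other summits, and at or above it 22 of 25, 88.0% (68.8 to 97.5), against 93.8%. Of members with a signal of at least 500, 16 of 19 were in both, 84.2% (60.4 to 96.6), against 90.3%. Without Wapl the share below the median was 17 of 27, 63.0% (42.4 to 80.6), and then each interval of this split by signal holds its background. The second list of both pools held 51 of the 56, also with no share of the other summits beside it. The conservative list was itself chosen for agreement between pools, so these shares describe the lists and are not independent evidence of reproducibility.

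**Figure D4:**
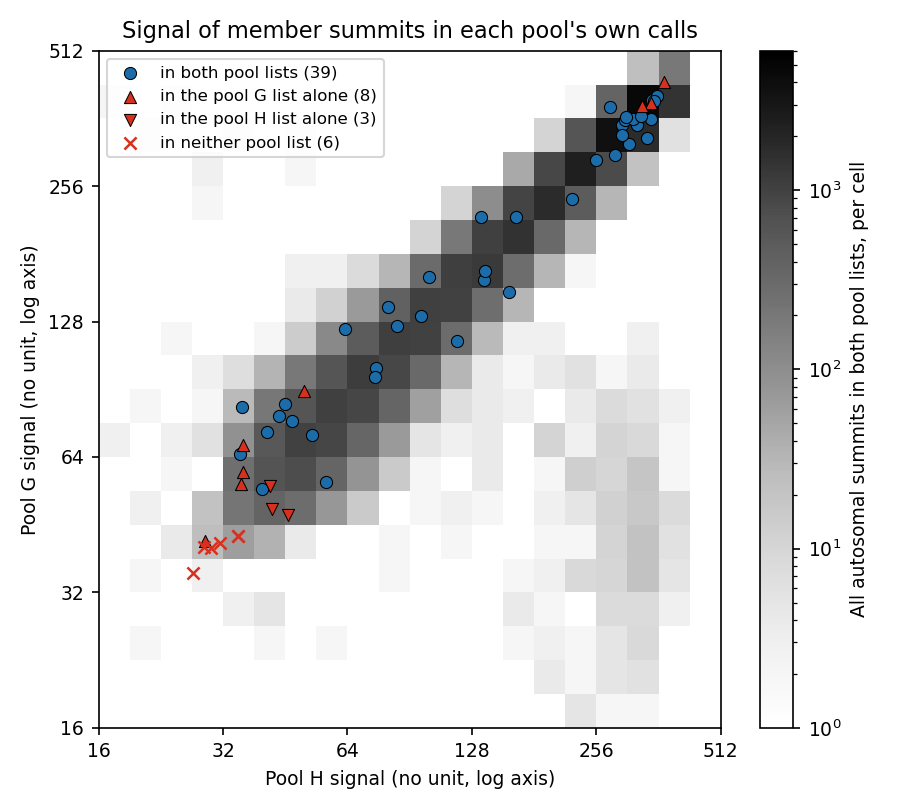
Pool G signal against pool H signal (no unit, log axes) in each pool's own ranked calls, for the 56 summits, over a grey count of all autosomal summits found in both pool lists. Blue circles are the 39 in both thresholded lists, red triangles the 8 and 3 in 1 list and crosses the 6 in neither, of which 2 at Wapl share 1 pair of values. The 3 red triangles at the upper right are the strong summits of Ctcf, Stag1 and Pds5a, and their signals lie within the cloud of the list.

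For the 39 summits in both lists the ratio of pool G to pool H signal had a median of 1.2, between 0.949 and 2.32, against a median of 1.22 over 45032 autosomal summits (10th to 90th percentile 1.06 to 1.53). The signals of the pools are on scales of their own, so the ratio describes a place in that spread. More than 1.5 times from the list's median lay 4 summits, all with a higher ratio: Stag1 summit 3 (82.6 in pool G and 35.6 in pool H), Stag1 summit 4 (123 in pool G and 63.2 in pool H), Ctcfl summit 5 (65.1 in pool G and 35.1 in pool H) and Mau2 summit 6 (83.8 in pool G and 45.1 in pool H). These 4 were weak sites of 101 to 188 without a core, and 0 lay more than 2 times from the list's median. That median is over all signals, and in the list the ratio was higher at low pool H signal. The share of the list beyond the same limits is not given here, so the 4 are not shown to be unusual for weak sites. The lowest ratio was that of Smc3 summit 8, with 149 in pool G and 157 in pool H.

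The choice of list and of start decided the promoter call of Wapl and Nipbl. Wapl gained a promoter summit in the second list of both pools and in the pool H list, each with 7 of the 10 genes, against 40.1% and 33.8% of all genes. Pool G's list gave the same 6 genes as the conservative list, against 35.5%. Within 5 kb of a start, Nipbl made 7, against 55.3%, and with RefSeq transcript starts, an alternative added after seeing the data, it did so again, against 32.7% of 20558 genes. Ctcfl and Mau2 had no promoter summit under any of these settings. The edge of the windows also mattered: the members nearest to it were 2 weak summits at Mau2, 19.8 and 19.4 kb out with 127 and 119, and outside it stood strong summits at Wapl (724, 21.2 kb) and Smc3 (719, 21.3 kb).

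In related gene lists the share with a promoter summit was near the 35.7% of all genes or above it. It was 36.4% for the further cohesin genes, 37.5% for the condensin genes, 83.3% for the SMC5/6 genes and 88.9% for the CTCF partners. Of 11 further cohesin genes, of germ-line subunits and cell-cycle regulators, 4 had a promoter summit, led by separase Espl1 with 716 and shugoshin Sgo1 with 479. Of 8 condensin genes 3 had one, led by the HEAT-repeat subunit genes Ncapd3 with 505 and Ncapd2 with 302. In the SMC5/6 complex it was 5 of 6, with Nsmce4a at 570 and Nsmce1 at 454. Of 9 genes for proteins reported to act with CTCF 8 had one, with the helicase gene Chd8 at 774 and Adnp at 663, and Yy1 was the exception. With the 5′ end of the gene record as the start, 4 of these 9 had one. In the same way it was 3 of the 11 further cohesin genes, 3 of the 8 condensin genes and 4 of the 6 SMC5/6 genes, against 28.0% of all genes. The lists are small, were chosen with earlier results known and differ in their median number of annotated starts, from 4 for the further cohesin genes to 8 for the CTCF partners, so their shares stand side by side with no test.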

How the data were processed

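CTCF ChIP-seq of heart was analysed from the authors' peak lists for pool G and pool H. Per the deposited readme texts, the authors made ranked and thresholded lists from each pool and from both pools. This was checked in the ranked list matched between pools: a record of the same position and signal existed in pool G for 77.5% of second members (0.0% in pool H) and in pool H for 71.8% of first members (0.0% in pool G). The signal deposited by the authors is a score whose unit is not stated. A second deposited score is the scaled IDR, at least 540 (IDR 0.05) in the conservative list. The build is mm10, per the labels. The software for alignment and peak calling was not given in the sources used here, and a further file that entered the thresholded lists was not used here.

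Summits (start plus offset) were placed on GENCODE M21 and GRCm38.p6, with pysam 0.24.0, scipy 1.17.1, pandas 2.3.3, numpy 2.4.6 and matplotlib 3.10.9 under Python 3.11.15. A summit was matched to a single-pool list by an overlap of at least 1 bp. The core was searched on both strands with at most 1 mismatch, wholly within 100 bp of the summit, and the copy with the fewest mismatches was kept. The planned matrix, seeded with exact cores outside the windows and outside soft-masked sequence, was seen to mark exact cores alone. A matrix seeded with at most 1 mismatch was therefore added after seeing the data and is the one described with the results. It is 20 bases long and was fitted in 3 rounds, with a threshold that 1% of windows 1 kb away reach. The core search was tested on simulated data.

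The members and lists were chosen with earlier results of these data known. All 10 members are named, and of each comparison list the 2 genes with the strongest promoter summit. Neighbouring genes are named where a summit lay within 1 kb of their start. The split of pool agreement by signal, the most frequent word and the 3 further sequences at Ctcfl, Nipbl and Mau2 were chosen after their values were seen.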

Additional observations from a re-analysis of the deposited data

How the results depend on the processing

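Of 46 alternatives over 6 results, 42 stayed within 1.5 times of the count reported or inside the interval of the share reported. The 4 others concern the share of summits with the core, which was 57.1% with at most 1 mismatch. It was 30.4% with exact cores and with the planned matrix, 39.3% with the added matrix and 83.9% with at most 2 mismatches, against 33.0%, 31.7%, 46.8% and 89.4% of the other summits. With each pool's list alone there were 45 to 49 summits, 6 to 7 genes with a promoter summit, 51.1 to 53.1% with the core, 46.2 to 52.2% of cores on the gene's strand and 48.9 to 51.0% at or above the list's median signal. The share in both pool lists was 58.9% (45.0 to 71.9), against 74.7% of the other summits, where 50% of each peak had to overlap, and 77.1% (62.7 to 88.0), against 88.7%, at a scaled IDR of at least 830. Neither interval reaches its background, and the limit of 830 already leaves out every summit of Wapl. Under the main rule without Wapl, an alternative added after seeing the data, it was 75.0% (61.1 to 86.0). That interval holds the 85.2% of the other summits. No paired analysis was possible because each pool has 1 thresholded list and no test was made. Depth is unknown, so a gene without a summit is one where none passed the authors' threshold. A weak summit over repeated sequence also depends on how reads with several matches were placed, and this was not stated in the labels or files.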
